A study of Drosophila melanogaster with 48 samples.

Results

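The mitochondrial ribosomal protein genes of Drosophila melanogaster are the nuclear genes whose protein products build the ribosome inside mitochondria. They were taken here as the protein-coding genes whose symbol starts with mRpL (large subunit) or mRpS (small subunit) followed by a digit, and 73 of the 13935 protein-coding genes on the 7 chromosomes used met that rule. By symbol, 47 belong to the large subunit and 26 to the small subunit. Of the 73 genes, 12 lie on 2L, 12 on 2R, 17 on 3L, 21 on 3R and 11 on X.

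Mitochondria keep a small genome of their own, and the proteins it encodes, which are core parts of the respiratory chain and the ATP synthase, are translated by a separate ribosome. Its RNAs come from the mitochondrial genome, whereas all of its proteins are made in the cytosol from nuclear genes and imported. Nearly every cell uses these genes. Many of the proteins are named after a bacterial counterpart, and others occur only in mitochondria. In mammals mRpS30 and mRpS18A sit in the large subunit in spite of their names.

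Open chromatin was mapped with ATAC-seq, an assay in which a transposase inserts into accessible DNA, in 48 libraries of S2, a hemocyte-like cell line derived from embryos. The libraries fall into 24 groups of 2. Every culture was harvested at 48 h, counted from the start of induction with CuSO4, and those at 0 uM were given none. The lines carried copper-inducible Grainy head (Grh, an epithelial regulator), Zelda (Zld, an activator of the early embryonic genome), Twist (Twi or HA-Twi, a mesoderm regulator), or only the part of Grh or Zld that binds DNA (DBD). The main libraries paired S2-Grh at 100 uM CuSO4, S2-Zld at 1000 uM, S2-Twi at 40 uM, S2-Grh-DBD at 20 uM and S2-Zld-DBD at 100 uM, each with wild-type S2 cells (S2-WT) at the same dose. The titration libraries had S2-Grh at 0, 25, 100 and 400 uM, S2-Zld at 0, 500, 1000 and 1500 uM, S2-HA-Twi at 0, 10, 40 and 160 uM, S2-Grh-DBD at 80 uM and S2-Zld-DBD at 400 uM. The labels do not say whether a line is 1 clone.

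The values come from 10 deposited peak lists in dm6 coordinates, 5 from the main libraries and 5 from the titrations. A main list was called over factor and wild-type libraries together, and a full-length titration list over all doses, so a summit in a list does not tell induced from uninduced cells, and no value belongs to 1 replicate. Each line of a list is 1 summit, the point of highest signal in a peak, and the authors give it a fold enrichment over background. The lists hold between 32025 (HA-Twi titration) and 97931 (Twi) summits. Sequencing depth per library is unknown. Of 11 hemocyte markers, 9 had a summit in all 10 lists, where 60.8% of all protein-coding genes did, and the other two, the receptor genes NimC1 and Sr-CI, had one in 5 lists each. Of 4 epidermal and 4 mesodermal markers, 3 each had a summit in all 10 lists too, so these counts do not set hemocyte genes apart.

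Nearly all of the mitochondrial ribosomal protein genes had open chromatin at or next to them in every list. A gene was counted where a summit lay in its body or within 500 bp of it, and 69 of the 73 had one in all 10 lists (background 60.8%). The count rests on summits just outside the genes: in the gene body alone, 14 of the 73 had a summit in all 10 lists, where 32.9% of all protein-coding genes and 14.2% of those between 390 and 2242 bp long did. The Zld and Twi lists held a summit at all 73 genes (background 71.4% and 84.5%), and the Grh list at 72 (background 76.7%). The Grh DBD and Zld DBD lists each held one at 69 genes (background 68.8% and 71.5%). In the titration lists the count was 70 for Grh (background 69.6%), 71 for Zld (66.6%), 72 for HA-Twi (65.3%), 70 for the Grh DBD (67.4%) and 70 for the Zld DBD (68.1%). As shares of the 73 genes these counts ran from 94.5%, with an exact binomial 95% interval of 86.6 to 98.5%, to 100%, with an interval of 95.1 to 100%. The intervals cover counting error over genes only, and neighbouring genes are not independent. The counts of the 10 lists therefore lay within 4 genes of each other, although the longest list has about 3 summits for each one in the shortest.

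**Figure D1:**
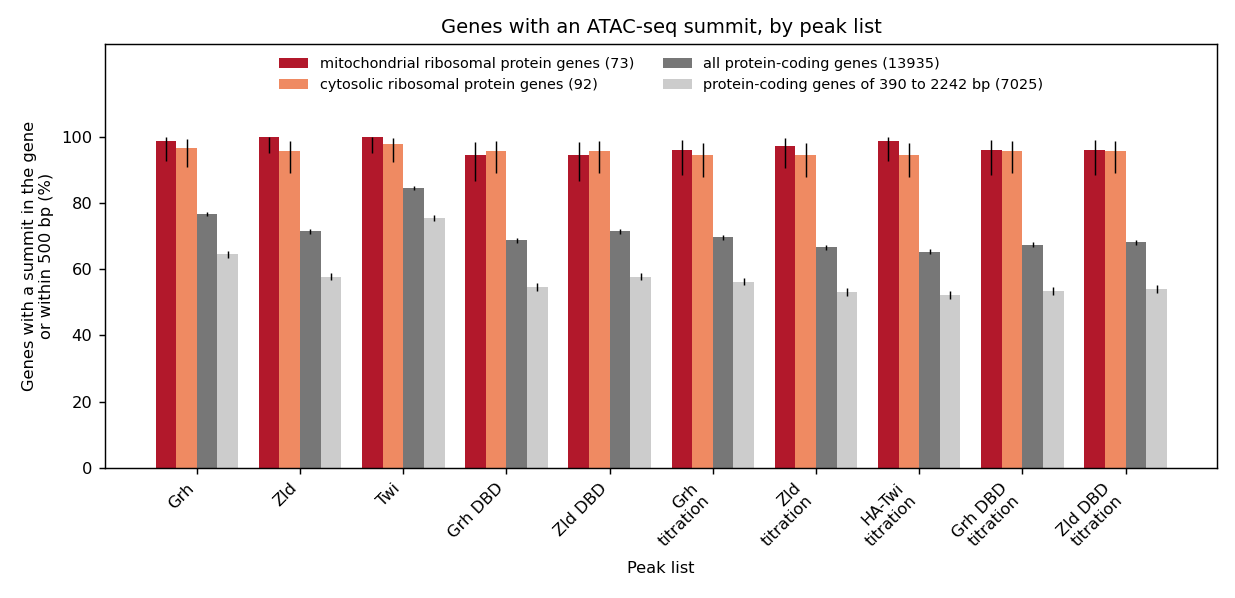
Share of genes (percent, vertical axis) with an ATAC-seq summit in the gene or within 500 bp, for each of the 10 peak lists (horizontal axis); bars are gene groups and black lines are exact binomial 95% intervals over genes. The mitochondrial ribosomal protein genes stand between 94.5 and 100% in every list, next to the cytosolic ribosomal protein genes, and all protein-coding genes between 65.3 and 84.5%.

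These genes are short and crowded, which bears on any window count. Their lengths ran from 390 bp (mRpL34) to 13391 bp (mRpS9) with a median of 909 bp, against a median of 2161 bp for all protein-coding genes. Among the 7025 protein-coding genes between 390 and 2242 bp long, 46.9% had a summit in all 10 lists. Another protein-coding gene lay within 500 bp of 72 of the 73 (98.6%, background 80.3%), and 43 (58.9%, background 41.3%) overlapped one. The part of the neighbours was measured by counting only summits whose nearest protein-coding gene end belonged to the member. A tie went to the member, so mRpL53, which has the same start and end as CG33155, is among the genes counted. By that count, an alternative chosen after the data were seen, 54 of the 73 genes had a summit of their own in all 10 lists (background 50.8%), and 4 had none in any list, namely mRpL54, mRpL2, mRpL47 and mRpS18C. By list, 61 had one in Grh (background 69.7%), 64 in Zld (65%), 66 in Twi (79.4%), 59 in Grh DBD (60.7%) and 59 in Zld DBD (63.5%). In the titrations 60 had one for Grh (62.1%), 60 for Zld (59.2%), 63 for HA-Twi (57.9%), 59 for the Grh DBD (59.5%) and 61 for the Zld DBD (60.3%). Thus 15 of the 69 genes with a summit in all lists owe that count in at least 1 list to a summit that lies nearer to another gene.

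Inside the gene bodies the members' share was below that of all protein-coding genes, which are longer, in each list. With summits in the body alone, 31 members were counted in Grh (background 55.4%), 34 in Zld (49.4%), 47 in Twi (68.5%), 25 in Grh DBD (44.8%) and 30 in Zld DBD (48.4%). In the titrations 27 were counted for Grh (46.1%), 27 for Zld (44.2%), 24 for HA-Twi (41.8%), 30 for the Grh DBD (44.9%) and 31 for the Zld DBD (45.5%).

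Most of the genes had a summit close to an end. A summit within 500 bp of an end adds little to the counts above, since in a gene of about 1 kb or less any summit that is counted lies within 500 bp of an end. The number of members with one equalled the number with a summit in each list, from 69 to 73, and among genes of 390 to 2242 bp the shares were nearly equal as well, at 57.8 and 57.4% in the Zld list. The share of all protein-coding genes was 72.1% in Grh, 67.9% in Zld, 81.3% in Twi, 64.6% in Grh DBD and 66.7% in Zld DBD. In the titration lists of Grh, Zld, HA-Twi, Grh DBD and Zld DBD it was 65.7%, 63.2%, 62%, 62.9% and 63.6%, and it was 57.1% for all 10 lists. A distance of 50 bp is informative at these lengths. The closest summit lay within 50 bp of an end at 59 members in the Grh list (background 37.4%), 62 in Zld (38.2%), 61 in Twi (40.6%), 55 in the Grh DBD list (34.2%) and 51 in the Zld DBD list (34.3%). In the titration lists the numbers were 61 for Grh (36.2%), 59 for Zld (36.1%), 63 for HA-Twi (36%), 55 for the Grh DBD (34.5%) and 56 for the Zld DBD (34.3%). As shares of the 73 genes these were 69.9 to 86.3%. The background ran from 34.2 to 40.6% over all genes and from 28.5 to 34.1% over those of 390 to 2242 bp. It also holds genes without any summit: in the Grh list 5212 of the 10691 genes with a summit had one this close. Of 38 other genes of mitochondrial gene expression 27 to 31 had one, or 71.1 to 81.6%. Of 92 cytosolic ribosomal protein genes 62 to 69 had one, and of 67 respiratory chain and ATP synthase genes 40 to 46. A summit this close to an end is therefore not particular to the family. The table of genes was used without strand, so a start and a termination site are not told apart here.

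The position was narrow as well as close. Over the 69 genes with a summit in all lists, the median distance of the closest summit was 19.5 bp outside the gene, with quartiles of 3.0 and 26.0 bp. At 50 of the 69 genes (72.5%) it lay 0 to 50 bp outside an end, at 10 (14.5%) it lay up to 50 bp inside, and at 8 (11.6%) it was more than 50 bp outside. For the 8477 protein-coding genes with a summit in all lists, the same shares were 43.9%, 13.2% and 31.8%, with quartiles of 0.5 and 67.0 bp. For the 3297 of them that were 390 to 2242 bp long, they were 45.7%, 15.3% and 31.6%. Only mRpS5 had its closest summit more than 50 bp inside the gene (1.45% of the 69, against 11.1% of all such genes). The cytosolic ribosomal protein genes, the most similar gene family, had 49.4% at 0 to 50 bp outside, 25.3% just inside and 23.0% further out.

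**Figure D2:**
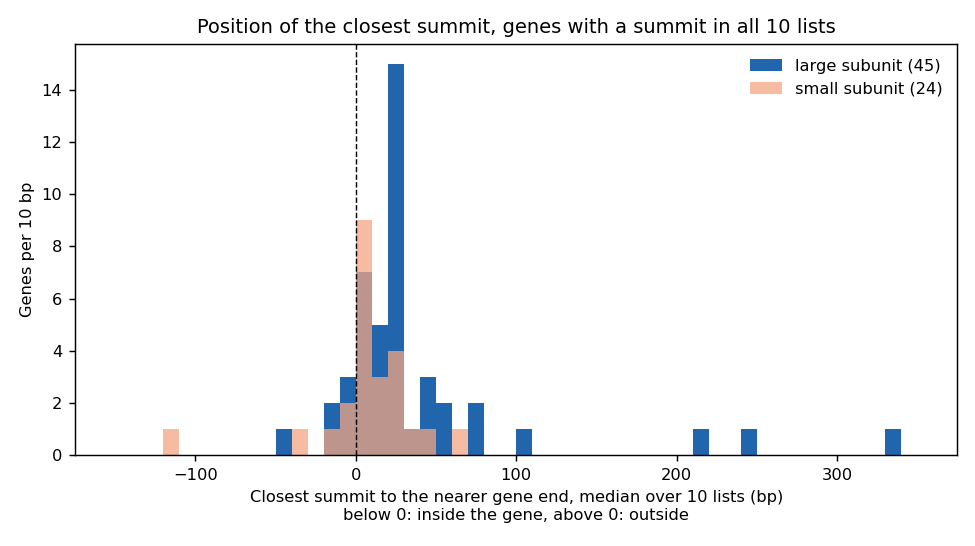
Distance in bp from the nearer gene end to the closest summit (horizontal axis, median over the 10 lists, below 0 inside the gene), with the number of genes per 10 bp on the vertical axis, for the 45 large subunit and 24 small subunit genes with a summit in all lists. Most genes stand between 0 and 50 bp outside an end, and mRpS5 is the lone bar near -114 bp.

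Large and small subunit genes were both nearly always counted. All 47 large subunit genes had a summit in the Zld, Twi and HA-Twi titration lists, 46 in the Grh, Zld titration, Grh DBD titration and Zld DBD titration lists, and 45 in the rest. All 26 small subunit genes had one in the Grh, Zld and Twi lists, 25 in the 3 full-length titration lists and 24 in the 4 DBD lists. To set genes side by side within a list, the fold enrichment of the strongest summit at each gene was ranked among all summits of that list as a percentile, which depends on the length of the list. The median percentile of large subunit genes was 85.8, 83.9, 89.9, 75.1 and 78.4 in the main lists and 78.2, 82.0, 76.8, 78.0 and 78.5 in the titrations. That of small subunit genes was 84.0, 80.4, 90.6, 81.4 and 76.9 and then 79.8, 81.2, 80.4, 77.6 and 79.6, so which subunit was higher changed from list to list. The closest summit was nearer to the gene end at small subunit genes in 9 of the 10 lists, with medians of 8.0 against 20.0 bp in Zld, 14.5 against 23.0 bp in Grh and 11 against 21.0 bp in the HA-Twi titration. In the Zld DBD list both medians were 21.0 bp, and the difference was not tested. The lists share most sites at these genes, so the 9 lists are not separate observations. The 11 genes on X had a summit in every list.

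In strength the genes stood between short genes and all genes with a summit in 9 lists. The median fold enrichment of the strongest summit at a member was 5.65 in the Grh list, where it was 5.93 over all protein-coding genes with a summit. It was 8.49 against 9.96 in the Zld list, 5.29 against 5.14 in Twi, 5.82 against 6.52 in the Grh DBD list and 4.96 against 5.55 in the Zld DBD list. In the titration lists it was 9.10 against 10.8 for Grh, 9.49 against 10.4 for Zld, 11.1 against 13.4 for HA-Twi, 6.42 against 7.30 for the Grh DBD and 6.19 against 6.93 for the Zld DBD. The members were thus below the median of all genes with a summit in 9 lists and above it in the Twi list. Against genes of 390 to 2242 bp with a summit they were higher in all 10 lists, where those genes had medians of 4.77, 8.25, 3.80, 5.37 and 4.54 in the main lists and 8.63, 8.57, 10.8, 6.09 and 5.77 in the titrations. Their strongest peaks were also narrower than those of all genes with a summit in each of the 8 lists with called widths, with medians of 130 bp (Zld DBD) to 161 bp (Twi) against 159 to 194 bp. The genes of 390 to 2242 bp with a summit had medians of 138 to 169 bp, nearer to those of the members.

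**Figure D3:**
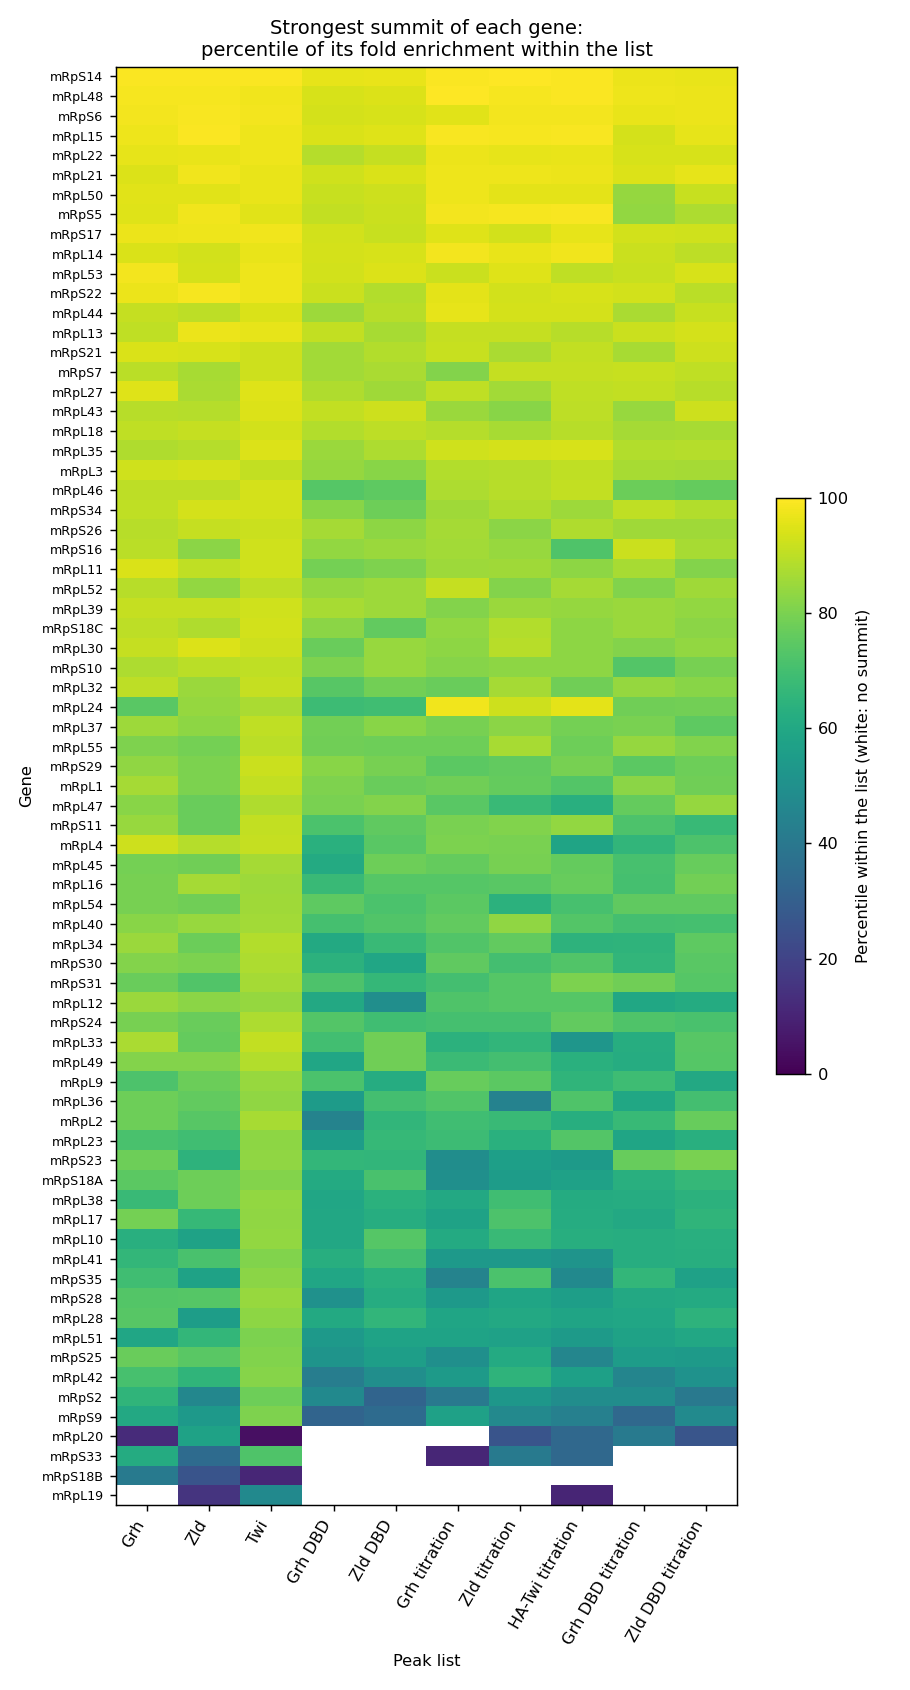
Percentile of the strongest summit's fold enrichment within its list (colour, 0 to 100, white where no summit was found) for the 73 genes (rows) in the 10 lists (columns). Rows are ordered by the number of lists with a summit, then by their median. The order from mRpS14 at the top to mRpS9 is much the same in all columns, mRpL24 is bright in the 3 full-length titration lists, and white cells occur in the 4 lowest rows.

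The order of the genes was shared between lists. Over the 69 genes with a summit in all lists, Spearman's rho of the fold enrichments ran from 0.83 (Grh against HA-Twi titration) to 0.94 (Grh titration against Zld titration) over the 45 pairs of lists, with a median of 0.88. This is a description across genes, with no p-value, and lists called over wild-type or uninduced cells of the same line share what those cells have open. Of the 69, 16 had a median percentile of at least 90 and 2 had one below 50. The 5 strongest and the 5 weakest genes follow with their fold enrichment in every list.

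mRpS14 (X:19479382-19480238), a small subunit protein with a bacterial counterpart, ranked first by median percentile and between 1 and 3 in each list. Its fold enrichment was 15.7 in Grh, 24.6 in Zld, 17.1 in Twi, 15.5 in Grh DBD and 14.0 in Zld DBD, and 32.5, 30.9, 40.0, 16.4 and 14.9 in the Grh, Zld, HA-Twi, Grh DBD and Zld DBD titrations. The summit moved by only 12 bp between lists and lay 23 to 35 bp outside the gene, and its median percentile was 99.3. That position is inside Naa15-16, which overlaps mRpS14, as does CG32533. There were 4 or 5 summits at mRpS14 in every list.

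mRpL48 (2L:1710462-1711465), a protein of the large subunit that occurs in mitochondria only, had a fold enrichment of 13.7, 21.3, 12.0, 12.4 and 11.6 in the Grh, Zld, Twi, Grh DBD and Zld DBD lists. In the titrations, in the same order of factors, it had 33.1, 23.6, 39.4, 16.9 and 15.3. All 10 values rested on a summit 18 to 28 bp outside the gene. In 7 lists that summit was nearer to the end of another gene, and the member itself overlaps frtz.

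mRpL15 (3L:20435110-20436209), named for a core protein of the bacterial large subunit, had 11.8, 23.6, 11, 12.7 and 12.1 in the main lists and 26.9, 23.6, 34, 12.4 and 13.9 in the titrations. Its summit lay 13 to 25 bp outside the gene, which overlaps Psn, the presenilin gene. In 6 of the 10 lists it was nearer to the end of another gene.

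mRpS6 (3L:4364550-4365243) and mRpL21 (3L:19253290-19255061), both with bacterial counterparts, were high through a summit at the neighbouring gene. The strongest summit at mRpS6 lay 424 to 434 bp outside it and was nearer to Cip4 in all lists, with fold enrichments of 12.8, 21.8, 12.5, 11.9 and 10.7 in the main lists and 18.6, 22.2, 30.0, 16.0 and 15 in the titrations. That at mRpL21 lay 265 to 271 bp outside it, nearer to rept, which encodes a chromatin remodelling ATPase, with 9.12, 18.8, 9.69, 11.2 and 11.1 in the main lists and 21.5, 20.1, 26.5, 13.2 and 13.8 in the titrations. Both genes also had a summit at their own end, at a median of 19.0 bp outside mRpS6 and 20.5 bp outside mRpL21.

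At the low end stood mRpS9 (3R:7889277-7902667), the longest of the genes, which overlaps ArgRS-m, the mitochondrial arginyl-tRNA synthetase. Its strongest summit had a fold enrichment of 2.63, 3.91, 3.02, 2.27 and 2.08 in the main lists and 5.15, 3.83, 4.46, 2.42 and 2.85 in the titrations, with a median percentile of 47.4. The number of summits in its long body varied with the list, with 8, 9 and 11 in the Grh, Zld and Twi lists, 2 and 1 in the DBD lists, and 6, 4, 3, 3 and 2 in the titrations.

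mRpS2 (2L:4849439-4850419), a small subunit protein with a bacterial counterpart, had 2.96, 3.32, 2.74, 2.85 and 2.03 in the main lists and 3.57, 4.42, 5.09, 3.11 and 2.50 in the titrations. A weak summit sat just inside its end in each list, at a median of 5.0 bp, and its peaks were narrow, with a median of 76.5 bp. In 2 lists, however, the strongest summit was nearer to another gene, at up to 218 bp from the end of mRpS2.

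mRpL42 (2R:10066650-10067242) and mRpL51 (2L:8516753-8517380), both large subunit proteins that occur in mitochondria only, were low as well. mRpL42 had 3.45, 5.15, 3.24, 2.62 and 2.48 in the main lists and 4.82, 5.97, 6.18, 2.91 and 3.03 in the titrations. mRpL51 had 2.59, 5.24, 3.00, 3.24 and 2.91 in the main lists and 5.26, 4.92, 5.80, 3.72 and 3.71 in the titrations. The gene mRpS25 (X:14582136-14582982), which encodes a mitochondria-specific small subunit protein, had a single summit in every list, 16 to 33 bp outside the gene, with 4.19, 6.64, 3.10, 3.08 and 2.78 in the main lists and 4.32, 5.43, 4.71, 3.53 and 3.26 in the titrations. These genes were ranked among the 69 with a summit in all lists, and the other 4 are described next.

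**Figure D4:**
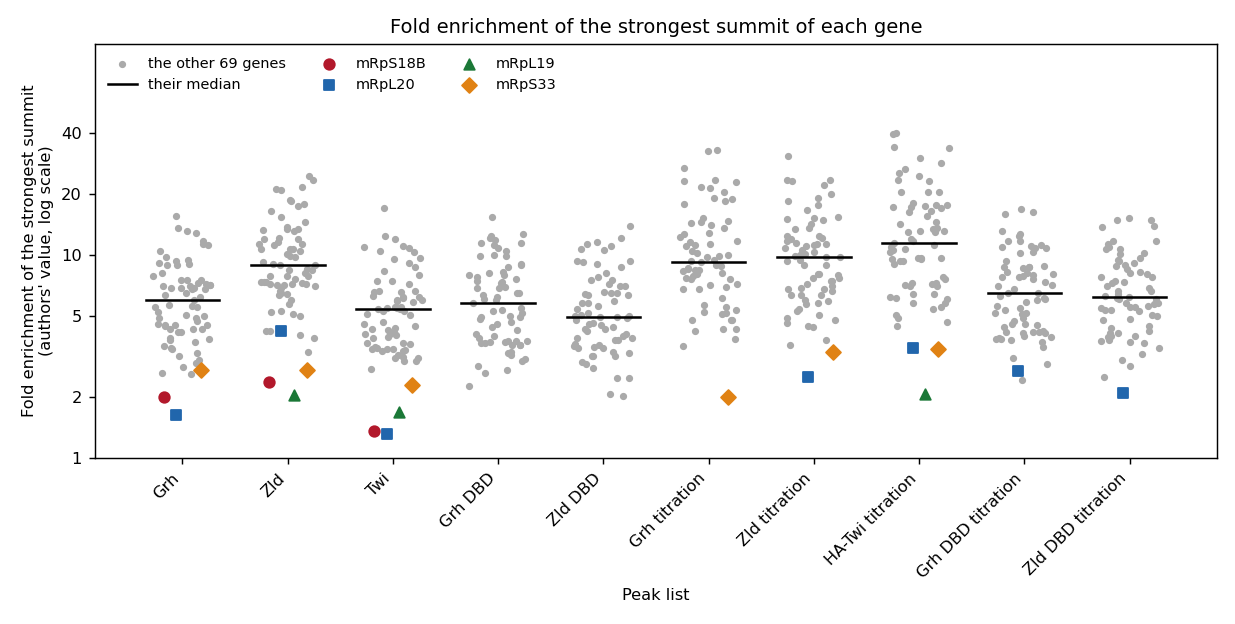
Fold enrichment of the strongest summit of each gene (vertical axis, log scale, the authors' value) in the 10 lists (horizontal axis); grey points are the 69 genes with a summit in all lists, black lines their median, and coloured symbols the 4 genes absent from at least 1 list. Where they have a summit at all, mRpS18B, mRpL20, mRpL19 and mRpS33 lie in or below the lowest part of the grey points.

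mRpL19 (3R:8674109-8675196), a large subunit protein with a bacterial counterpart, had a summit in 3 lists only, with a fold enrichment of 2.04 in Zld, 1.68 in Twi and 2.07 in the HA-Twi titration. Those summits lay 2 to 5 bp inside the gene in peaks of 62, 76 and 65 bp. A far stronger summit lay 1395 to 1455 bp away, at the far end of the next gene, Unc50, and outside the counting window. It was present in every list, from 6.68 in the Zld DBD titration to 21.6 in the HA-Twi titration.

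mRpS18B (2L:20096329-20097253), 1 of 3 fly relatives of bacterial S18 in the set, had a summit in the Grh (2.01), Zld (2.37) and Twi (1.36) lists and in no DBD or titration list. Those summits were 234 to 448 bp inside the gene, away from either end. In all 10 lists there was a stronger summit between 645 and 667 bp outside the gene, at Kua, with fold enrichments from 2.73 in the Grh DBD list to 6.40 in the Zld list. The relatives mRpS18A and mRpS18C had a summit in all 10 lists. The strongest one, however, was nearer to another gene in all 10 lists at mRpS18C and in 8 at mRpS18A.

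mRpL20 (3L:13017149-13017867), a large subunit protein with a bacterial counterpart, was absent from the Grh DBD, Zld DBD and Grh titration lists. Its fold enrichment was 1.64 in Grh, 4.21 in Zld, 1.32 in Twi, 2.52 in the Zld titration, 3.48 in the HA-Twi titration, 2.70 in the Grh DBD titration and 2.10 in the Zld DBD titration. The higher Zld and HA-Twi titration values belong to summits 385 and 391 bp outside the gene, which were 14 and 8 bp from the end of Icmt. The strongest summit of the neighbourhood, at CG11267 and 1102 to 1113 bp from mRpL20, was in every list, from 5.41 (Zld DBD) to 17.0 (HA-Twi titration).

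mRpS33 (3R:16436045-16436597), a mitochondria-specific small subunit protein, was absent from all 4 DBD lists. It had 2.71 in Grh, 2.72 in Zld, 2.30 in Twi, 2.00 in the Grh titration, 3.35 in the Zld titration and 3.47 in the HA-Twi titration. A summit 4 to 23 bp outside its end was present in all 6 full-length lists. In the Zld and Twi lists the strongest one was instead 457 and 458 bp outside, within a peak that also held a summit 660 bp away at ema. DBD and full-length lists come from different libraries of unknown depth, so the factor and the depth cannot be told apart in the absence of these weak summits.

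Peak width followed strength only in part. The widest peak by median over the 8 lists with called widths was that of mRpS14, at 467 bp, with 467, 481, 467, 432 and 280 bp in the main lists and 474, 467 and 276 bp in the Grh, Zld and HA-Twi titrations. Second was mRpL42, at 380 bp, with 235, 414, 479, 457 and 104 bp and then 384, 376 and 377 bp, although its fold enrichment was among the lowest 5. Next was mRpS31, a mitochondria-specific small subunit protein, at 328 bp, with 97, 341, 338, 317 and 306 bp and then 338, 111 and 344 bp. In each list there were 4 or 5 summits at mRpS14, 2 to 4 at mRpL42 and 2 at mRpS31. At mRpS31 (3L:16005193-16006599) the strongest summit was 451 to 465 bp outside in 9 lists, at the next gene, and a second summit lay within 7 bp of its own end. The widest single peak was at mRpS6, with 588 bp in the Zld titration list, where the other 7 lists gave 274 to 315 bp.

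**Figure D5:**
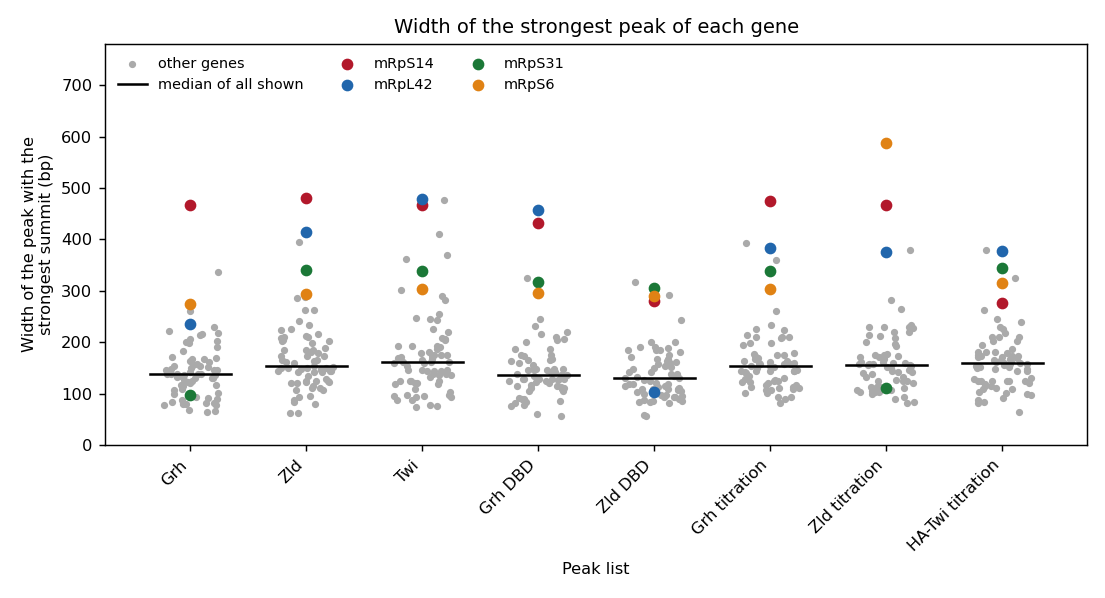
Width in bp (vertical axis) of the peak that holds the strongest summit of each gene, in the 8 lists with called widths (horizontal axis); grey points are genes, black lines the median of all shown, and coloured points 4 genes with wide peaks. The medians lie between 130 and 161 bp, and mRpS14 lies at or above 432 bp in 6 of the 8 lists.

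A summit counted at a member often lay nearer to another gene. Of the 69 genes with a summit in all lists, the strongest summit was nearest to an end of the member in all 10 lists for 26, nearer to another gene in all lists for 25, and mixed for 18. These are 37.7%, 36.2% and 26.1% of the 69, where all 8477 genes with a summit in all lists gave 59.0%, 23.3% and 17.6%, those of 390 to 2242 bp 52.2%, 29.7% and 18.0%, and the cytosolic ribosomal protein genes 70.1%, 18.4% and 11.5%. In every group a tie with another gene's end went to the gene itself. The 26 therefore include mRpL53, which shares both ends with CG33155, and mRpL13, which shares an end with CG10602. The neighbours include other genes for mitochondrial or ribosomal proteins. The strongest summit at mRpL27 lay at the end of RpL27A, a cytosolic ribosomal protein gene 231 bp away, and mRpL55 lies 95 bp from ATPsynD, a subunit of the mitochondrial ATP synthase. In the Grh list, though, the strongest summit at mRpL55 was 9 bp from cdi, on its other side. These neighbours are examples, and the share of such genes among all neighbours was not counted. At mRpS7 the strongest summit was at da, the partner gene of many bHLH factors including Twi, and at mRpS24 it was at Apc2. Which of the genes at a shared summit it serves was not tested.

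The position of the strongest summit was as steady across lists as at other short genes. It stayed within 50 bp in the 10 lists at 51 of the 69 genes (73.9%) and moved further at 18, with a median range of 17 bp, and at 61 (88.4%) it was nearest to the same end throughout. Over genes of 390 to 2242 bp the shares were 71.8% and 91.3% with a median range of 19 bp, and over all genes with a summit in all lists 61.0% and 87.0% with 24 bp, so nothing is read from the members' counts. At mRpS29 (2R:22418937-22420376), the fly relative of a GTP-binding protein known in mammals as DAP3, the range was 4 bp. For mRpL12 (3L:8956791-8957584), whose mammalian relative also binds the mitochondrial RNA polymerase, it was 12 bp, and the fold enrichment was 5.63, 8.47, 3.64, 3.72 and 2.48 in the main lists and 7.60, 7.48, 9.68, 3.88 and 3.84 in the titrations. Apart from the long mRpS9, the largest range was 2157 bp at mRpL3, where the strongest summit was on one side of the gene in some lists and on the other side in others.

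mRpS5 (3L:24537236-24543534) stood apart in its surroundings. It is the second longest of the genes, at 6299 bp, and the nearest other protein-coding gene, nvd, is 135581 bp away, so no neighbour shares its summit. It had 1 summit in each list, always 112 to 117 bp inside the gene, with 9.37, 18.6, 8.32, 9.95 and 9.23 in the main lists and 23.2, 23.1, 33.8, 7.68 and 8.56 in the titrations. It therefore ranked among the stronger genes, with a median percentile of 95.3, without any close neighbour.

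The gene whose rank moved most was mRpL24 (2L:4944256-4945361), a large subunit protein with a bacterial counterpart. Among the 69 genes it ranked 6, 15 and 11 in the Grh, Zld and HA-Twi titration lists, and between 34 and 57 in the other 7. Its fold enrichment was 23.0, 14.2 and 23.3 in those 3 titrations, 6.51 and 6.18 in the DBD titrations, and 3.87, 8.93, 4.30, 4.56 and 3.83 in the main lists. The summit behind most of these values lay 442 to 459 bp outside the gene and inside the neighbouring betaggt-I, and in the Grh and Twi lists it was one at the end of betaggt-I, 224 and 225 bp outside. Main and titration lists come from different libraries, and what differs between them at this site was not tested. The next largest rank range was that of mRpL4, from 17 in the Grh list to 57 in the HA-Twi titration list, at a summit that stayed within 15 bp.

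Few regions at these genes belonged to 1 factor. A region was called so where it was in the main and the titration list of a full-length factor and overlapped no list of the other two. Such a region of Grh lay at 0 of the 73 genes (background 4.41%), of Zld at 1 (background 2.12%) and of Twi at 0 (background 1.82%). The one found, 2L:4974379-4974451 in the Zld list, was 430 bp inside mRpL28 and weak, with a fold enrichment of 1.71. Counts of 0 or 1 gene are too small to read a direction from. The background also covers all protein-coding genes, which are longer than the members.

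The summits found in a single list were weak. Of the 203 summits the Twi list held at members, 20 overlapped no other list, at 17 genes, with a median fold enrichment of 1.45 and none above 1.64. They were 9.85% of the summits at members, where 26.5% of the whole Twi list was found in no other list. In the Grh titration list 7 of 153 summits (4.58%, whole list 7.79%) were of this kind, at 5 genes, the strongest 3.25 at mRpS11, 440 bp inside the gene. The Grh list had 4 of 166 (2.41%, whole list 5.59%), the Zld titration list 2 (1.33%, whole list 1.34%) and the Zld DBD titration list 2 (1.36%, whole list 0.695%). The Zld list had 1 (0.585%, whole list 3.17%), the Zld DBD list 1 (0.709%, whole list 2.97%), and the other 3 lists none, where 0.684 to 1.44% of the whole lists were of this kind. The share at members was thus below that of the list in 8 lists, about equal in the Zld titration and above it in the Zld DBD titration. Outside the Twi list these are counts of 0 to 7, too few to read a direction from. A whole list is also not limited to summits at genes.

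Set beside the related genes, the family was not singular in being open. Of 92 cytosolic ribosomal protein genes, 87 had a summit in all 10 lists, and 87 to 90 in each. Their summits were stronger by rank, with median percentiles of 83.8 to 93.4 against 77.1 to 90.4, and the 5 without a full set include RpL22-like, RpS5b and RpS10a, which are paralogs of other ribosomal protein genes. Of 38 other genes of mitochondrial gene expression, among them translation factors, tRNA synthetases and the mitochondrial RNA polymerase gene PolrMT, 35 had a summit in all lists and 36 to 38 in each. The 3 exceptions were mTTF, a transcription termination factor, in 9 lists, and the tRNA synthetase genes CysRS-m in 8 and GluRS-m in 5. That list also holds tko and bonsai, small subunit proteins whose symbols do not follow the mRp pattern. It further holds PolG1, PolG2, mtSSB and Letm1, which are not gene expression genes in the strict sense.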

How the data were processed

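ATAC-seq was measured in 48 S2 libraries. Per the submitters' processing notes, Bowtie2, MACS2, featureCounts, DESeq2 and deepTools 3.5.1 were used with build dm6; their settings and any shift for the transposase are not given in these sources. Each line of the 10 deposited lists carries the authors' fold enrichment, which is a ratio, their −log10 q (1.3 at the least), a score and the offset of the summit. For the DBD titrations the lines are windows of 200 bp that give no summit, so the midpoint was used and widths were left out. The labels do not say which libraries entered these 2 lists. Depth is unknown.

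Genes, with start and end in dm6 (Release 6 plus ISO1 MT), came from the RefSeq gene table. A summit was counted at a gene within 500 bp of its body. Shares carry exact (Clopper-Pearson) 95% intervals over genes, which cover counting error only. The tools were pandas 2.3.3 and numpy 2.4.6 in Python 3.11.15, with scipy 1.17.1 for intervals and matplotlib 3.10.9 for figures. The members and lists were chosen with earlier results of these data known, and no list was tested. Genes named with all values are the 5 highest and 5 lowest by median percentile, those absent from a list and the 3 widest; the others named were chosen after their values were seen. Of 42 names for mitochondrial gene expression, 38 matched by symbol. Promoter sequence and strand were not used here, so the planned motif shares and the 5′ end were not examined.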

Additional observations from a re-analysis of the deposited data

How the results depend on the processing

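The window decided most. With the gene body alone, 31, 34, 47, 25 and 30 members had a summit in the Grh, Zld, Twi, Grh DBD and Zld DBD lists, 27, 27, 24, 30 and 31 in the Grh, Zld, HA-Twi, Grh DBD and Zld DBD titrations, and 14 in all 10 lists, where 32.9% of all protein-coding genes and 14.2% of those between 390 and 2242 bp long had one. By its construction that count drops summits just outside an end. The median width of the strongest peak was then 94, 98.5, 109, 92 and 92.5 bp in the main lists and 100, 103 and 103 bp in the Grh, Zld and HA-Twi titrations. The count in all 10 lists was 63 with 200 bp, 71 with 1000 bp, 64 with a −log10 q of at least 10, 54 with own summits only and 67 without the 2 long genes, the last pair chosen after the data were seen. It was 69 with equal list lengths, with either overlap rule and without the DBD titration lists, and 70 over the 6 full-length lists. Joining summits of 1 region left 135 to 184 per list. No paired analysis was possible because each list was called over several libraries, so replicates could not be left out either. The 5′ end alone was not run, since strand was not used. Unknown depth limits what a missing weak summit shows.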

Other observations

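The genes of the respiratory chain and ATP synthase, whose products work beside those made by the mitochondrial ribosome, split by symbol, in a comparison chosen after the data were seen. Of 67 such genes 63 had a summit in all 10 lists (background 60.8%) and 64 to 67 in each, close to the share of the ribosomal protein genes. The 4 others were ND-19 with 9 lists, ND-24 with 7, ND-MNLL with 6 and ATPsyndelta with 2. ND-MNLL was kept among the 67 although its symbol ends in L, since MNLL is that subunit's own name. Of 25 paralogs whose symbol ends in L or in L and a digit, 4 had a summit in all 10 lists, 8 had one in none, and the count per list ran from 4 in the HA-Twi titration to 17 in Twi. Of all protein-coding genes 60.8% had one in all 10 lists and 12.7% in none. Among genes of 390 to 2242 bp these shares were 46.9% and 20.6%. A summit within 50 bp of an end was found at 0 or 1 of the 25, against 40 to 46 of the 67 (background 34.2 to 40.6%).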
